A study of Drosophila melanogaster with 7 samples.

Results

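The X chromosome of Drosophila melanogaster carried 5656 of the 40204 insulator protein peaks in 7 lists made by chromatin immunoprecipitation and sequencing (ChIP-seq) in the established embryonic line Kc167. The members are the peaks whose sequence name is exactly X, so that peaks on XHet, the separate heterochromatic sequence, are not among them. In mitosis X held 749 of 5608 CP190 peaks, 408 of 6030 dCTCF peaks, 212 of 1829 Su(Hw) peaks and 572 of 3325 BEAF peaks. In interphase it held 1963 of 11470 CP190 peaks, 585 of 3962 dCTCF peaks and 1167 of 7980 BEAF peaks. After fixation in 1% formaldehyde, mitotic cells had been sorted from interphase cells by an antibody to the mitotic histone mark H3S10ph together with propidium iodide. The groups differ in cell cycle phase and in the precipitating antibody, which came from rabbit for CP190, BEAF and Su(Hw) and from guinea pig and rat for dCTCF. No interphase Su(Hw) peaks were used here.

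Insulator proteins bind sites that separate neighbouring regulatory domains or bring distant ones together. BEAF binds short clustered CGATA motifs, mostly near the promoters of broadly expressed genes. dCTCF is the fly homolog of CTCF, and Su(Hw) binds the gypsy insulator; both are zinc-finger proteins. CP190 is a partner that these DNA-binding proteins bring to their sites. The fly X is single in males, where its genes are transcribed at a raised rate by the dosage compensation complex, and paired in females. Kc167 is generally described as a female line, in which that complex is not assembled. Chromosomes condense in mitosis and many factors leave chromatin.

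Peaks on X were set against those on the autosomal arms 2L, 3L and 3R, and the score given to each peak by the authors was divided into quintiles over the whole of its list. With 1 library for each protein and phase there are no replicates, so no test was made between libraries. Intervals in parentheses are 95% intervals and cover counting error only. They treat peaks as independent, which neighbouring peaks need not be, and are not adjusted for the 38 main comparisons made, in 17 of which the interval excluded no difference. The only spread beyond counting is that between arms, so the value of each autosomal arm is given where it matters. Arm 2R was outside the comparison as defined. It was added after the data were seen, because its peak density lay as high as that of X in several lists. Depth per library is unknown. Read coverage and copy number of X were not measured, so their part in peak numbers and scores was not tested. Scores rank peaks within a list only, and 327 X peaks stand at or above 3100, a value many peaks share, so the order among these is not an order of strength. Positions are those of the authors' lists, 1-based. The sequence names match Drosophila release 5, although no source used here gives the build, and peaks were not assigned to genes.

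BEAF was the protein with the largest excess of peaks on X among the 4. In mitosis there were 25.5 BEAF peaks per Mb on X, against 17.3 on 2L, 17.7 on 3L and 19.1 on 3R. The ratio of X to the pooled autosomal arms was 1.41 (1.28 to 1.55). In interphase BEAF had 52.1 peaks per Mb on X, against 42.8 on 2L, 42.8 on 3L and 45.8 on 3R, a ratio of 1.19 (1.11 to 1.27). Thus X lay above each of the 3 arms in both phases. Arm 2R differed from them. It held 22.3 BEAF peaks per Mb in mitosis, and X over 2R was 1.14 (1.01 to 1.29). In interphase 2R held 53.0 per Mb and the ratio was 0.983 (0.904 to 1.07), so a high interphase BEAF density was not particular to X.

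The other proteins showed smaller differences. Mitotic CP190 stood at 33.4 peaks per Mb on X, against 29.0 on the pooled arms, a ratio of 1.15 (1.06 to 1.25). Arm 2R was higher still at 38.0, and with 2R among the autosomes the ratio was 1.08 (0.995 to 1.17). Interphase CP190 reached 87.6 peaks per Mb on X, against 79.3 to 88.7 on the 3 arms, and the ratio of 1.04 (0.988 to 1.09) did not exclude equal density. Without 3R, the arm as dense as X, it was 1.07 (1.02 to 1.13). Interphase dCTCF had 26.1 peaks per Mb on X, against 23.0 on the pooled arms, and the ratio was 1.13 (1.03 to 1.25). It was 1.03 (0.911 to 1.16) over 2R. Mitotic dCTCF was spread evenly, with 18.2 peaks per Mb on X, against 18.3 to 18.9 on the arms, and a ratio of 0.974 (0.871 to 1.09). Su(Hw) in mitosis had 9.46 peaks per Mb on X, against 7.76 on the pooled arms, a ratio of 1.22 (1.04 to 1.43). That ratio included 1 when 3R was left out (1.18, 0.995 to 1.40), with scores of at least 100 (1.10, 0.826 to 1.45) and with 2R added (1.14, 0.971 to 1.32).

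**Figure D1:**
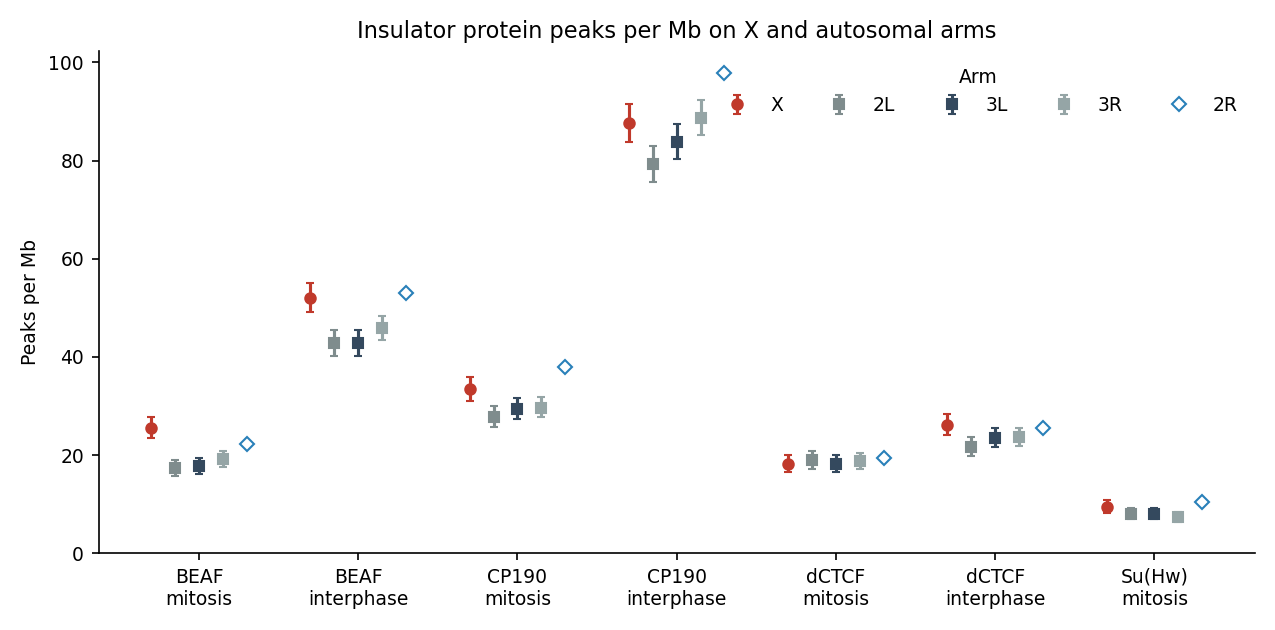
Peaks per Mb (vertical axis) for each list (horizontal axis, mitosis left of interphase) on X, 2L, 3L, 3R and 2R; bars are exact 95% Poisson intervals, given for X and the 3 arms of the comparison. BEAF on X, at 25.5 in mitosis and 52.1 in interphase, lies above 2L, 3L and 3R, while 2R reaches 22.3 and 53.0.

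The BEAF excess was largest among the strongest peaks. In the highest mitotic score quintile, X held 185 peaks and the 3 arms 333, and the density ratio was 1.87 (1.55 to 2.24). In the lowest 3 quintiles the mitotic BEAF ratio lay between 1.16 and 1.27, each with an interval that included 1, and in the fourth it was 1.41 (1.13 to 1.75). The interphase list had the same form, with 372 X peaks and 882 autosomal peaks in the highest quintile and a ratio of 1.42 (1.25 to 1.60). The remaining interphase quintiles lay between 1.08 and 1.14, again with intervals that included 1. This is where X also stood above 2R: the ratio of X to 2R in the highest quintile was 1.35 (1.07 to 1.70) in mitosis and 1.21 (1.03 to 1.41) in interphase. Of the X peaks, 32.3% (28.6 to 36.3%) in mitosis and 31.9% (29.3 to 34.6%) in interphase fell in that quintile, against 24.4% and 26.6% on the 3 arms. The range over the arms was 20.4 to 26.6% in mitosis and 24.1 to 29.0% in interphase.

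For the other lists the surplus of strong peaks was smaller or not detectable. In mitosis, CP190 had a highest-quintile ratio of 1.32 (1.12 to 1.55), while dCTCF had 1.08 (0.829 to 1.41) and Su(Hw) had 1.03 (0.703 to 1.49). In interphase it was 1.08 (0.964 to 1.20) for CP190 and 1.06 (0.877 to 1.28) for dCTCF. Over 2R, the mitotic CP190 ratio was 1.07 (0.872 to 1.31), so a surplus of strong mitotic CP190 peaks was not shown to be particular to X. Median widths on X were close to those on the arms. BEAF peaks measured 583 bp on X and 559 bp on the arms in mitosis, and 520 and 489 bp in interphase.

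**Figure D2:**
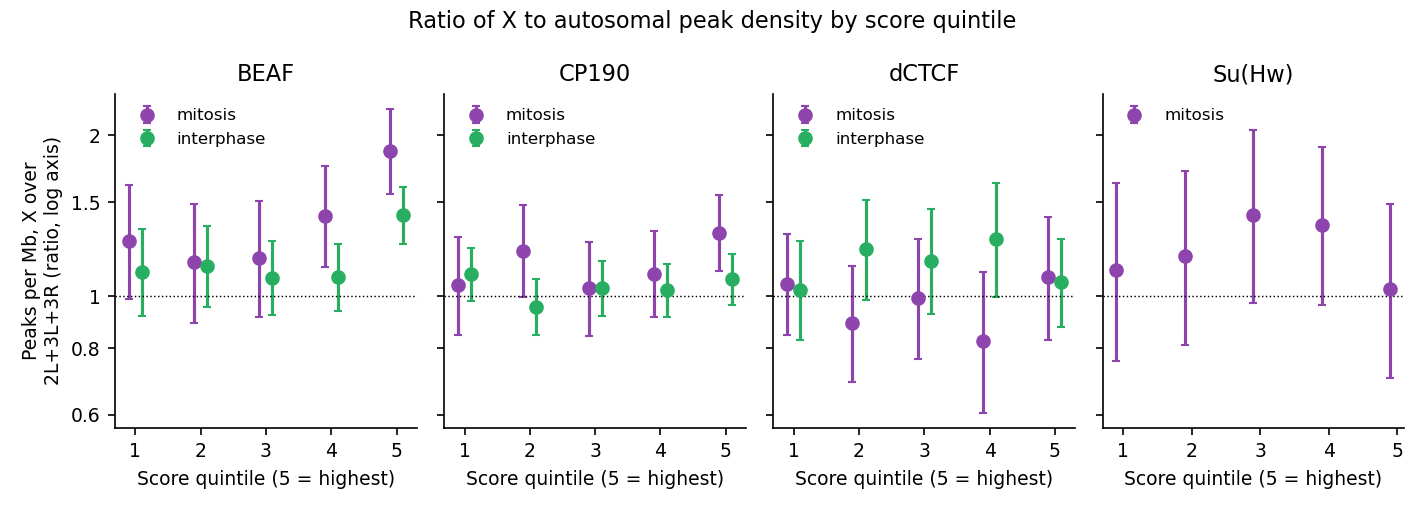
Ratio of peaks per Mb on X to peaks per Mb on 2L, 3L and 3R pooled (vertical log axis) in each score quintile of a list (horizontal axis, 5 the highest), for mitosis and interphase; bars are exact 95% intervals and the dotted line marks equal density. For BEAF the highest quintile stands at 1.87 in mitosis and 1.42 in interphase.

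BEAF was also retained in mitosis more often on X. An interphase peak counts as retained when it shares 1 bp or more with a mitotic peak of that protein. On X 556 of 1167 interphase BEAF peaks were retained (47.6%, 44.8 to 50.5%), against 40.1% on 2L, 40.6% on 3L and 41.3% on 3R. Over the whole interphase list, unplaced sequences included, the share was 38.0%. Most of this difference followed the scores. Pooled autosomal retention was 40.7%, and it was 44.8% when the autosomal quintiles were weighted as on X, which left a difference of 2.87 points (1.04 to 4.85) in place of 6.91 points (3.60 to 10.2). Against 2R the weighted difference was 2.19 points (-0.0560 to 4.51). With equal numbers of the highest scoring peaks it was 0.962 points (-1.64 to 3.21) against the 3 arms.

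By quintile, the differences lay below the highest, in which nearly every BEAF peak was retained everywhere and little difference could appear. In the highest quintile 371 of 372 X peaks and 878 of 882 autosomal peaks were retained. In the fourth it was 58.0% on X and 52.2% on the arms, a difference of 5.78 points (-1.23 to 12.6). In the third quintile X stood at 9.66% and the arms at 5.44% (difference 4.22 points, 0.326 to 9.24), and in the second at 6.21% and 2.87% (3.35 points, 0.0884 to 8.05). Retention by partner showed that BEAF sites with CP190 but not dCTCF in interphase were retained in 60.2% (56.1 to 64.2%) of 560 cases on X, against 46.5% of 1694 on the arms. Within quintiles that difference was 3.29 points (0.612 to 6.17). BEAF sites with neither protein were retained in 20.1% of 309 cases on X, against 23.2% of 772 on the arms, but within quintiles the difference was 1.66 points (-1.87 to 5.78). Those with both were retained in 59.8% of 254 cases on X, against 49.1% of 751 on the arms, a difference within quintiles of 3.01 points (-1.16 to 7.64). The partner classes were not set against 2R.

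**Figure D3:**
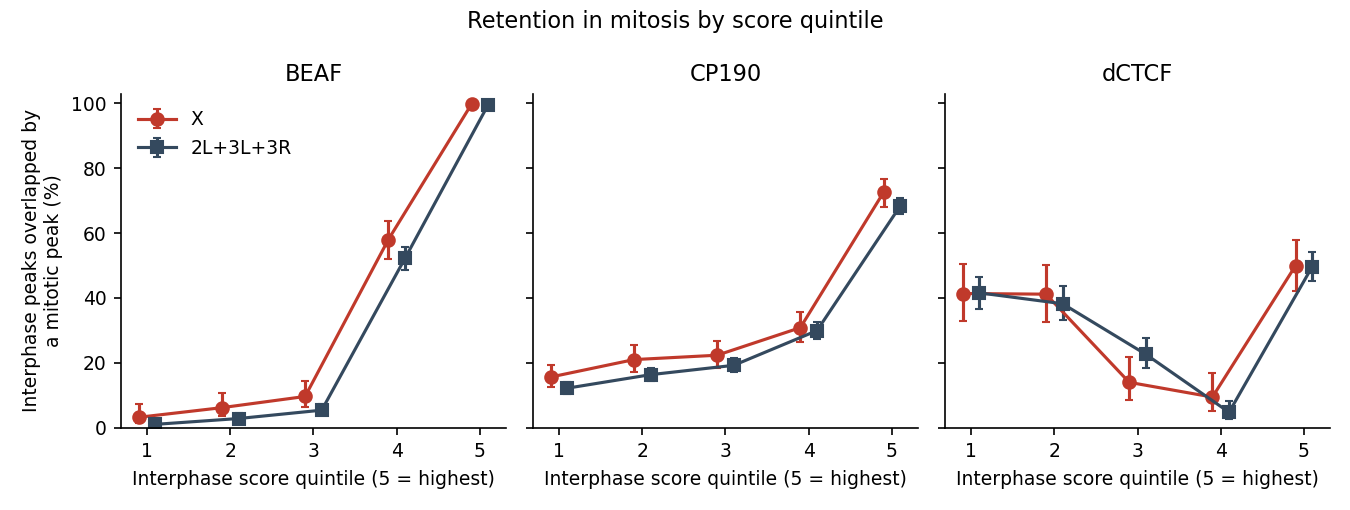
Share of interphase peaks that overlapped a mitotic peak of that protein (vertical axis, %) by interphase score quintile (horizontal axis, 5 the highest) for X and for 2L, 3L and 3R pooled; bars are 95% Wilson intervals. BEAF retention reaches 99.7% on X in the highest quintile, and X lies above the arms in the quintiles below it.

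The strongest interphase BEAF sites of X were more often among the strongest in mitosis than those of 2L, 3L and 3R. Of the 372 X peaks in the highest interphase quintile, 183 overlapped a mitotic peak of the highest mitotic quintile (49.2%, 44.1 to 54.3%). The share was 37.9% (34.7 to 41.1%) on the 3 arms, with 34.2% on 2L, 39.6% on 3L and 38.9% on 3R, and it was 44.8% on 2R. The difference from the 3 arms was 11.3 points (5.32 to 17.3), and from 2R it was 4.37 points (-3.29 to 11.9), so it was not shown to be particular to X. This difference largely restates the highest-quintile numbers given above and is not a separate result. X held 185 mitotic peaks of that quintile and the 3 arms 333, close to the 183 and 334 interphase peaks counted here. The rank correlation between interphase and mitotic scores across retained BEAF sites was 0.785 for the 556 on X and 0.808 for the 1349 on the arms. These sites share 2 libraries. CP190 showed 34.9% on X and 29.1% on the arms by the same measure (difference 5.77 points, 0.757 to 11.0). On 2R it showed 27.7%, and X minus 2R was 7.14 points (1.01 to 13.2). For dCTCF the shares were 25.7% on X and 21.7% on the arms (3.93 points, -3.56 to 12.3). The dCTCF share on 2R was 14.5%, and X minus 2R was 11.2 points (1.68 to 20.3).

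Named BEAF sites on X illustrate these classes. The highest scoring retained peak, X 9552659 to 9553293, had BEAF scores of 2082.9 in mitosis and 3233.06 in interphase and was called in every list but Su(Hw). The next, X 17472853 to 17474081, had scores of 928.6 and 3226.07. It had CP190 in interphase but no mitotic CP190 call, and a weak Su(Hw) call of 54.11. The retained peak X 16534026 to 16535209 (537.17 in mitosis, 3197.6 in interphase) had mitotic calls of CP190 (158.18) and dCTCF (100.02) but no interphase dCTCF call. Of the 611 X peaks called in interphase alone, the highest scoring was X 15604434 to 15605335 (2126.6), the X peak in the highest quintile that had no mitotic BEAF call. It kept CP190 (309.02) and dCTCF (146.71) in mitosis and also had Su(Hw) (103.36). The next, X 6577575 to 6578604 (1382.14), had CP190 in interphase and no call of any protein in mitosis. Only 4 of the 572 mitotic BEAF peaks on X lacked an interphase BEAF call, all with scores between 55.5 and 60.95 and no call in any other list. The share with a call was 99.3% on X and on the arms alike, against 90.8% over the whole mitotic list.

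CP190 was retained at 656 of its 1963 interphase sites on X (33.4%, 31.4 to 35.5%). On 2L the share was 28.9%, on 3L 30.4% and on 3R 30.2%, and over the whole list it was 34.0%. Within quintiles the difference of X from the 3 arms was 3.25 points (1.19 to 5.41), and it was 2.64 points (-1.26 to 6.49) with equal numbers of the highest scoring peaks. Retention on 2R was 34.3%, and X minus 2R was -0.878 points (-3.50 to 1.75). The higher CP190 retention was therefore not particular to X. From the lowest to the highest quintile the X shares were 15.6, 21.0, 22.4, 30.9 and 72.6%, and the autosomal shares were 12.2, 16.4, 19.3, 30.0 and 68.4%.

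Retention differed with the partners of a CP190 site. CP190 sites on X that carried both dCTCF and BEAF in interphase were retained in 75.5% (69.8 to 80.5%) of 245 cases, against 66.4% of 749 on the arms, and the difference within quintiles was 6.55 points (1.26 to 11.5). Those with BEAF only were retained in 35.6% of 571 cases on X and 32.8% of 1685 on the arms. With dCTCF only the shares were 38.5% of 174 on X and 41.1% of 584 on the arms, and with neither they were 20.7% of 973 on X and 18.2% of 3337 on the arms. Within quintiles the last difference was 2.82 points (0.200 to 5.80), while those for BEAF only (2.01 points, -1.90 to 6.18) and dCTCF only (-2.52 points, -9.21 to 4.85) included 0. The class with both partners was 12.5% of X peaks and 11.8% of autosomal peaks. These classes were not set against 2R, so whether their differences are particular to X is not known.

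The named CP190 sites went both ways. X 5506952 to 5508357 had CP190 scores of 1349.6 in mitosis and 3183.28 in interphase and a dCTCF peak of 2560.95 in interphase, which was not called in mitosis. X 3179158 to 3179718 had CP190 scores of 258.69 in mitosis and 3189.86 in interphase and no other protein in either phase. X 2539529 to 2540958 (339.56 in mitosis, 3196.07 in interphase) also had a Su(Hw) call of 70.63. Among 1307 X peaks called in interphase alone, X 10223172 to 10224894 had a CP190 score of 3100 beside a dCTCF peak of 2035.84, and no protein was called there in mitosis. X 21844826 to 21845315 (3092.56) was called for CP190 in interphase and for nothing else. Of the 749 mitotic CP190 peaks on X, 661 had an interphase CP190 call (88.3%, 85.8 to 90.4%), against 88.0% on the arms and 70.1% over the whole mitotic list. Most of the 88 called in mitosis alone were weak. In the highest score quintile 206 of 208 X peaks had an interphase call, and in the fourth 145 of 154. The highest scoring of the 88 was X 5454315 to 5455113 (296.02), where Su(Hw) was also called (96.28). At X 17019180 to 17019637, CP190 was called in mitosis alone (229.26) on a strong BEAF site with scores of 1007.67 in mitosis and 2376.29 in interphase.

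dCTCF retention on X did not differ detectably from that on the arms. It was 195 of 585 peaks (33.3%, 29.6 to 37.2%), against 38.3% on 2L, 34.6% on 3L and 31.5% on 3R, and 45.1% over the whole list. Within quintiles the difference was -0.179 points (-4.17 to 4.09), so an excess or deficit of up to about 4 points is within counting error. As on the arms, retention on X was not ordered by score, with 41.4, 41.2, 14.0, 9.47 and 50% from the lowest to the highest quintile. In the fourth, 9 of 95 X peaks were retained and 12 of 250 autosomal peaks. Of the 408 mitotic dCTCF peaks on X, 178 had an interphase dCTCF call (43.6%, 38.9 to 48.5%), against 39.9% on the arms and 28.0% over the whole mitotic list, of which the 5 arms hold a minority.

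Among the named dCTCF sites, X 16640679 to 16641441 had dCTCF scores of 509.56 in mitosis and 3230.05 in interphase. It had an interphase CP190 peak of 282.62 and no mitotic CP190. X 16530941 to 16532177 had dCTCF scores of 229.68 and 3147.14 and BEAF scores of 3100 in both phases. X 8570584 to 8571586 was likewise called in every list but Su(Hw), with dCTCF scores of 92.79 in mitosis and 3110.2 in interphase. Of the 5 highest scoring X peaks called in interphase alone, 4 kept CP190 in mitosis. They included X 1666485 to 1667148, with an interphase dCTCF score of 3157.89 and CP190 scores of 995.08 in mitosis and 3100 in interphase. The exception, X 762295 to 763049 (dCTCF 3100, CP190 2838.88), had no call in mitosis. All 5 had CP190 of the highest interphase quintile, in which 72.6% of X peaks were retained. Of all 585 interphase dCTCF peaks on X, 43.2% overlapped mitotic CP190, against 43.6% on the arms. The 5 highest scoring X peaks called in mitosis alone were broad, from 3043 to 5527 bp, against a median of 885.5 bp for mitotic dCTCF on X. The highest scoring, X 21966605 to 21972131 (1175.99), lay in the centromere-proximal part of the arm with CP190 in both phases and Su(Hw). Of all mitotic dCTCF peaks on X, 10.3% (7.71 to 13.6%) were 2000 bp or wider, and 8.73% (7.37 to 10.3%) on the arms.

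Mitotic CP190 and mitotic BEAF met more often on X when counted from CP190. Of the 749 mitotic CP190 peaks on X, 261 overlapped a mitotic BEAF peak (34.8%, 31.5 to 38.3%), against 23.2% on 2L, 26.0% on 3L and 28.4% on 3R. The share over the whole list was 21.3%. Within quintiles the difference from the 3 arms was 8.63 points (4.92 to 12.5), and from 2R, where the share was 27.3%, it was 7.09 points (2.49 to 11.6). It was clearest in the highest quintile of mitotic CP190 scores. There 92 of 208 X peaks had BEAF (44.2%, 37.7 to 51.0%), against 27.8% (24.2 to 31.8%) of 532 on the arms. The 3 arms all lay between 27.8 and 28.0%, and this quintile was not set against 2R. Counted from BEAF, 259 of the 572 mitotic BEAF peaks on X overlapped CP190 (45.3%, 41.2 to 49.4%), against 40.7% on the arms and 35.4% over the whole list. Within quintiles that difference was 1.49 points (-2.94 to 6.07). A mitotic BEAF peak on X was therefore not detectably more likely to carry CP190 at a given score, while BEAF itself was denser on X.

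**Figure D4:**
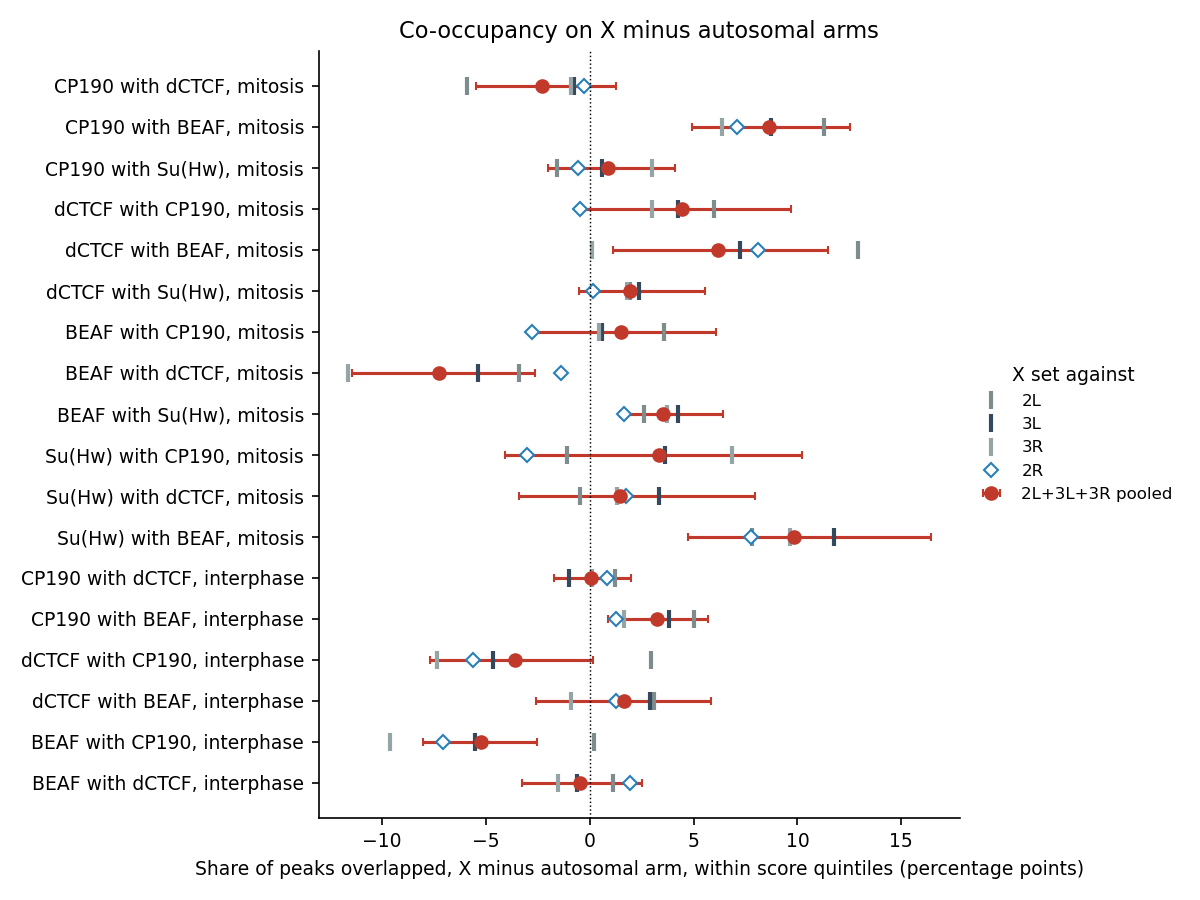
Share of peaks of the protein named first that overlapped a peak of the protein named second, X minus autosomes within score quintiles (horizontal axis, percentage points); circles and 95% intervals are for 2L, 3L and 3R pooled, bars for each of these arms and diamonds for 2R. CP190 with BEAF (8.63) and Su(Hw) with BEAF (9.81) in mitosis lie to the right for every arm.

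By the full set of mitotic partners, the surplus on X was detectable in CP190 peaks with BEAF but without dCTCF. These differences are over all scores and not within quintiles. CP190 with BEAF alone was 21.4% of mitotic CP190 peaks on X and 15.9% on the arms (difference 5.49 points, 2.29 to 8.91). CP190 with BEAF and Su(Hw) was 3.74% on X and 1.51% on the arms (2.23 points, 0.941 to 3.90). CP190 with dCTCF and BEAF was nearly the same, at 8.41% on X and 8.0% on the arms. CP190 with dCTCF, BEAF and Su(Hw) was 1.335% on X and 0.686% on the arms (0.649 points, -0.103 to 1.79). On 2R the shares were 16.2% with BEAF alone and 2.12% with BEAF and Su(Hw), and no interval was computed against it. CP190 with dCTCF alone was 8.54% on X and 11.2% on the arms (-2.61 points, -4.88 to -0.0638), where 2L had 15.2%, and 3L, 3R and 2R between 9.44 and 9.54%. CP190 with no mitotic partner was 43.8% on X and 48.5% on the arms.

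In interphase the same pair of proteins gave opposite signs from the 2 sides. BEAF was at 816 of 1963 interphase CP190 peaks on X (41.6%, 39.4 to 43.8%), against 38.3% on the arms and 38.2% over the whole list, and the difference within quintiles was 3.26 points (0.878 to 5.70). It was 1.27 points (-1.69 to 4.22) against 2R. CP190 was at 814 of 1167 interphase BEAF peaks on X (69.8%, 67.1 to 72.3%), against 67.3% on 2L, 73.7% on 3L and 79.0% on 3R, with 55.2% over the whole list. That difference was -5.24 points (-8.04 to -2.54) within quintiles, and -2.70 points (-5.70 to 0.254) without 3R, and 2L stood as low as X. On 2R the share was 75.4%, and X minus 2R was -7.08 points (-10.3 to -3.72). The deficit was largest in BEAF quintiles 2 and 3. In the second quintile 44.1% of X peaks had CP190, against 63.7% on the arms (-19.6 points, -27.8 to -11.1), and in the third 53.1% and 67.3% (-14.2 points, -21.9 to -6.56). The second quintile had 57.3% on 2L, 64.7% on 3L and 67.5% on 3R. The third had 56.9% on 2L, near X, 66.7% on 3L and 76.1% on 3R. Neither quintile was set against 2R. In the highest quintile X had 93.3% and the arms 90.9%. BEAF sites with neither CP190 nor dCTCF were 26.5% of interphase BEAF peaks on X and 23.3% on the arms, with 28.8% on 2L and 19.1% on 3R.

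Su(Hw) lay at BEAF sites more often on X than on 2L, 3L and 3R, from both sides. Against 2R a difference was detectable only when counted from Su(Hw). Of the 212 Su(Hw) peaks on X, 41 overlapped a mitotic BEAF peak (19.3%, 14.6 to 25.2%), against 11.4% on 2L, 7.65% on 3L and 9.76% on 3R, and 13.4% over the whole list. Within quintiles of the Su(Hw) score the difference was 9.81 points (4.75 to 16.4), and against 2R, where the share was 11.9%, it was 7.78 points (0.746 to 14.8). Of the 572 mitotic BEAF peaks on X, 42 overlapped Su(Hw) (7.34%, 5.48 to 9.78%), against 4.03% on the arms, 5.73% on 2R and 7.49% over the whole list. Within BEAF quintiles that was 3.55 points (1.47 to 6.42) above the 3 arms and 1.66 points (-1.72 to 4.78) above 2R. The surplus was in the strongest BEAF peaks. In the highest quintile 23 of 185 X peaks had Su(Hw) (12.4%, 8.43 to 18.0%), against 8 of 333 on the arms (2.40%, 1.22 to 4.67%). That quintile was not set against 2R. With scores of at least 100 required in both lists, the difference counted from BEAF was 1.02 points (-0.409 to 3.37).

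The 41 Su(Hw) peaks at mitotic BEAF on X all overlapped CP190 and BEAF in interphase. That followed largely from their choice, since 99.3% of all mitotic BEAF peaks on X had interphase BEAF and 86.5% interphase CP190. On the arms, 54 of the 56 such peaks overlapped interphase CP190 and 55 interphase BEAF. In mitosis, 35 of the 41 on X overlapped CP190 (85.4%, 71.6 to 93.1%). For the 171 X peaks away from BEAF the mitotic CP190 share was 56.1% (48.6 to 63.4%). The arms showed the same contrast, with 91.1% of 56 and 55.6% of 529. In interphase, dCTCF was at 23 of the 41 on X (56.1%, 41.0 to 70.1%) and 22 of the 56 on the arms (39.3%, 27.6 to 52.4%). The 41 peaks had a median score of 75.66 and a median width of 805 bp, against 85.02 and 824 bp for those away from BEAF, while on the arms both medians were higher at BEAF, with 85.3 and 1023 bp, against 79.45 and 841 bp away from it. Over all 212 X peaks, 61.8% (55.1 to 68.1%) overlapped mitotic CP190, against 59.0% on the arms and 65.2% over the whole list. The strongest included X 18133241 to 18134072, with Su(Hw) 2751.2, CP190 2702.69 and dCTCF 1650.24 in mitosis and no mitotic BEAF. X 2683915 to 2687129 (Su(Hw) 1664.03) had a mitotic BEAF score of 2979.85, and X 4849633 to 4850659 (Su(Hw) 1218.07) had mitotic scores of 3100 for CP190 and 1053.98 for BEAF.

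Mitotic BEAF peaks on X carried mitotic dCTCF less often. The share was 157 of 572 (27.4%, 23.9 to 31.2%) on X, against 28.9% on 2L, 32.0% on 3L and 38.8% on 3R, and 43.7% over the whole list. Within quintiles the difference was -7.24 points (-11.4 to -2.62). It was -4.46 points (-9.17 to 0.502) without 3R and -3.36 points (-6.12 to 0.0149) with a reciprocal overlap of 50%. Against 2R it was -1.38 points (-6.87 to 4.01), so it was not shown to be particular to X. Counted from dCTCF, 162 of 408 mitotic peaks on X overlapped BEAF (39.7%, 35.1 to 44.5%), against 33.9% on the arms and 22.9% over the whole list. That difference of 6.18 points (1.15 to 11.5) within quintiles was 12.9 points against 2L alone, 7.22 against 3L alone and 0.122 against 3R alone, and 8.09 points (1.57 to 14.4) against 2R. It was 2.04 points (-1.12 to 6.21) with a reciprocal overlap of 50% and 3.39 points (-1.95 to 8.92) without 2L. For dCTCF with CP190 in interphase, X had 72.5% (68.7 to 75.9%), against 70.5% on 2L, 78.2% on 3L and 79.8% on 3R, and 69.4% over the whole list. Within quintiles the difference was -3.58 points (-7.68 to 0.154), and it was -6.15 points (-10.3 to -2.21) without 2L and -5.60 points (-10.3 to -0.752) against 2R. dCTCF with BEAF in interphase stood at 49.4% on X and 48.2% on the arms, a difference within quintiles of 1.64 points (-2.57 to 5.85).

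Peaks of the 7 lists that overlapped were joined into 2431 regions on X and 7609 on the 3 arms. A region held peaks of a single list in 47.1% of cases on X and 46.9% on the arms. Of these, interphase CP190 alone made up 718 X regions (29.5% of all X regions, against 32.5% on the arms) and interphase BEAF alone made up 174 (7.16%, against 5.35%). Regions of any kind were 1.07 times as dense on X (1.03 to 1.13). Those with 6 of the 7 lists numbered 64 on X (22.4 Mb) and 144 on the arms, a density ratio of 1.5 (1.10 to 2.02). There were 39 on 2L (23.0 Mb), 40 on 3L (24.5 Mb) and 65 on 3R (27.9 Mb). The excess was not general to these regions. All lists but Su(Hw), the commonest combination, made up 1.60% of regions on X and 1.45% on the arms (0.159 points, -0.361 to 0.789). All lists but mitotic dCTCF numbered 16 on X and 10 on the arms (0.658% and 0.131%, difference 0.527 points, 0.251 to 0.940). Regions were not joined on 2R, so X was not set against it here. For regions with 5 lists the ratio was 1.15 (0.954 to 1.39). Those with all 7 numbered 8 on X and 11 on the arms (2.45, 0.855 to 6.68), a difference these counts cannot resolve. By summed score ranks, the first of these 8 was X 20630893 to 20632057, with scores of 3100 for CP190 and for dCTCF in both phases, BEAF scores of 498.75 in mitosis and 2998.69 in interphase, and Su(Hw) at 103.74. Next came X 18528133 to 18529888, where Su(Hw) was at 113.99 and BEAF at 903.92 in mitosis and 3100 in interphase. In all 8 regions the Su(Hw) score lay between 67.14 and 124.56, around the X median of 82.89.

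Peaks were spread more evenly along X than along 2L in all 7 lists, but not than along 3R in each. In full 1 Mb bins, interphase CP190 ranged from 65 to 110 peaks on X, with a coefficient of variation of 0.146, against 0.172 on 3R, 0.249 on 3L and 0.276 on 2L. Mitotic CP190 ranged from 20 to 45 on X (0.241), against 6 to 91 on 2L (0.677), 0.320 on 3L and 0.251 on 3R. Mitotic Su(Hw) ranged from 4 to 16 on X (0.377), against 0 to 50 on 2L (1.41), 0.559 on 3L and 0.374 on 3R. Mitotic dCTCF was less even on X (0.345) than on 3L (0.328) and 3R (0.306), and more even than on 2L (0.411). BEAF had higher coefficients along X than CP190, with 14 to 47 peaks per bin in mitosis (0.306) and 29 to 78 in interphase (0.277). On the arms the BEAF coefficients were 0.315 to 0.451 in mitosis and 0.264 to 0.420 in interphase. Counting error alone raises the coefficient where bins hold fewer peaks, and no allowance was made for this between lists or arms. The bin from 15 to 16 Mb held the most BEAF peaks in both phases, and the neighbouring bin from 16 to 17 Mb held 41 in mitosis and 72 in interphase. The bin from 21 to 22 Mb, near the centromere, had the most mitotic dCTCF peaks on X (37, against a median of 17 per bin) and the lowest BEAF retention of the full bins, 31.1% of 61 interphase peaks. The median distance between neighbouring interphase BEAF peaks was 5.88 kb on X, against 6.61 to 8.51 kb on the arms, and 45.3% of these distances on X were under 5 kb.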

How the data were processed

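Each library has 1 peak list, in which the authors deposited a score for every peak. Bowtie 0.12.5 was the aligner, per the submitters' processing notes. Peak names begin with MACS, per the deposited files. No source used here gives the caller's version or threshold, the meaning of the score, the genome build or any control library. Peaks were used as deposited, in 5 score quintiles over the whole list. Arm length was the highest peak end on the arm in any list. Density ratios have exact conditional binomial intervals, shares have Wilson intervals and differences of shares Newcombe intervals. Differences within quintiles were weighted by the numbers of X peaks, with limits combined from Wilson limits by the MOVER method. The calculations used Python 3.11.15, NumPy 2.4.6, SciPy 1.17.1 and matplotlib 3.10.9. In 84 of 84 combinations of lists and overlap rules, bedtools 2.31.1 gave the same counts. On simulated retention with a planted difference of 10 points for X, over 4479 peaks, 19 of 20 intervals held it. Retention was drawn independently for each peak there, so dependence between neighbouring peaks was not checked. Named sites are the 5 highest scoring X peaks of each protein among those retained, called in interphase alone and called in mitosis alone, the 5 highest scoring Su(Hw) peaks, and the X regions in all 7 lists; the text gives examples. The members, comparisons and site rules were chosen with earlier results of these data known.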

Additional observations from a re-analysis of the deposited data

How the results depend on the processing

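The 62 main values were recomputed under 13 alternatives where these applied, 637 values in all: 623 stayed within the interval of the main value and none reversed a difference whose interval excluded no difference. In 274 of the 637 the main interval excluded no difference, and 236 of these still did so, while 32 others newly did. The count kept was 11 of 19 with equal numbers of top scoring peaks and 13 of 19 with a reciprocal overlap of 50%. With scores of at least 100 it was 20 of 27. The mitotic BEAF density ratio lay between 1.34 and 1.46, its highest quintile between 1.72 and 2.05, the highest interphase BEAF quintile between 1.35 and 1.55, mitotic CP190 with BEAF between 7.48 and 11.6 points, and Su(Hw) with BEAF between 8.69 and 11.2 points. Of the 14 values outside their main intervals, 10 came from lists cut to equal numbers of top scoring peaks. For these, the differences within quintiles moved as follows: BEAF retention was 0.962 points (-1.64 to 3.21), mitotic BEAF with an interphase call -4.86 points (-7.60 to -2.61), mitotic CP190 with Su(Hw) 8.14 points (1.12 to 15.5), BEAF with Su(Hw) 7.95 points (4.47 to 12.5) and Su(Hw) with CP190 11.6 points (4.90 to 18.6). With scores of at least 100, BEAF with Su(Hw) was 1.02 points (-0.409 to 3.37) within quintiles and 0.902 points over all scores. Also over all scores, interphase BEAF with CP190 was -0.848 points (-4.17 to 2.42) without arm 3R, and mitotic CP190 with dCTCF 1.59 points (-0.920 to 4.38) with a reciprocal overlap of 50%. The cause was not tested. The difference for mitotic dCTCF with BEAF did not exclude 0 with a reciprocal overlap of 50% (2.04 points), with 400 bp around midpoints (2.98), with scores of at least 100 (4.39) or without arm 2L (3.39). The addition of 2R was chosen after the data were seen. No paired analysis was possible because each group is 1 library, so no replicate could be left out either. Library depth is unknown, so the absence of a call is no measure of absent binding.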
